A study of Mus musculus with 24 samples.

Results

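AGES, the astrocytes made from a mouse embryonic stem cell line, were set against neoAC direct, the astrocytes taken from the neonatal mouse cerebrum and frozen without culture, across every counted gene outside chromosomes X and Y. Of the 49671 genes counted, 45145 lay outside these chromosomes and on a placed chromosome or the mitochondrial genome, 4181 lay on X or Y and 345 lay on unplaced sequence. Filtering on low counts left 19691 genes for the fit over all 24 libraries, of which 18935 belonged to the genes described here. The question was how far a culture model used in place of primary astrocytes holds the transcriptome that astrocytes have in the brain.

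Both groups held 4 libraries. AGES came from neural stem cells (NSCs) of the line GSC-5003, derived from C57BL/6N embryonic stem cells, which were kept in EGF and FGF at 20 ng/ml to passages 50 to 60 and then switched to BMP4 at 20 ng/ml for 3 to 5 days. Its replicates were separate cultures of different passages of this 1 line. The neoAC direct cells came from cerebral tissue, freed of meninges, of C57BL/6J mice aged 4 to 8 days. They were dissociated with enzymes, selected on magnetic columns with an antibody to ACSA-2, and snap-frozen, with the brains of 2 mice pooled for each isolation. Mice of both sexes were used. ACSA-2 is the protein of Atp1b2, so the level of that gene was part of how these cells were chosen. Origin, culture, BMP4, substrain, brain region, age and dissociation all differed between the groups at once, and their shares in any difference cannot be told apart. The p-values set the difference between these 4 and 4 libraries against a spread between replicates. That spread was estimated over all 24 libraries of the 6 groups in 1 fit. In bulk RNA fewer cells of a type and less RNA per cell cannot be told apart.

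Astrocytes clear glutamate from synapses, buffer potassium, join to each other through connexin gap junctions, wrap blood vessels with aquaporin-rich endfeet and supply neurons with lipids and lactate. They arise from radial glia under BMP and Notch signals, divide in the first postnatal days and keep the positional transcription factors of the region in which they were born. GFAP, an intermediate filament, is low in most resting cortical astrocytes and high in cultured or injured ones.

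The 8 libraries were of similar depth, with 28114306 to 36911160 counted reads in AGES and 30502488 to 37997368 in neoAC direct. Levels are given in CPM, the reads of a gene as a share of the library's total, scaled by the trimmed mean of M-values, with ± for the SD over 4 libraries, and 3 counts in a library equalled about 0.1 CPM. Differences are log2 fold changes, AGES minus neoAC direct, with ± for the SE, from edgeR's quasi-likelihood fit, and a gene was called when its Benjamini-Hochberg adjusted p was under 0.05. Genes detected numbered 20951 to 21697 in AGES and 22859 to 23643 in neoAC direct. Mitochondrial transcripts took 1.66 to 2.07% of AGES counts and 0.990 to 1.04% of the counts of 3 neoAC direct libraries, with neoAC direct replicate 4 apart at 1.94%. AGES replicates 1 and 2 lay closer to each other than to replicates 3 and 4 (chi-square per gene 14.2, against 51.8 to 80.7 across the 2 pairs and 44.4 between replicates 3 and 4). By the same measure, neoAC direct replicate 4 lay apart from replicates 1, 2 and 3, at 44.89, 73.5 and 68.9. Replicates 1, 2 and 3 of neoAC direct lay at 12.64 to 18.02 from each other. The strand setting of the read counting was not given in the sources used here, so reads of overlapping genes on the 2 strands may have been mixed. This touches 68 of the 277 genes named here, which overlap an annotated gene on the other strand, among them Hoxa3, Hoxa7, Hoxb2, Hoxb3, Glul, Slc1a2, Fn1, Cp and Ctsb.

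In all, 13991 genes were called, 73.9% of those tested. Of these, 6215 genes were higher in AGES (32.8%) and 7776 were lower (41.1%), and the median log2 fold change over all genes tested was -0.09. In 5558 genes (29.4%) the lowest AGES library lay above the highest neoAC direct library, and in 7032 (37.1%) the reverse held. The tail was longer on the low side: 3269 called genes were lower by more than 3 on the log2 scale and 818 were higher by as much. With 10 CPM or more in neoAC direct, 17 genes had no read in any AGES library, while 0 genes stood the other way round. Without neoAC direct replicate 2, which had the highest endothelial, microglial, mural and erythroid marker sums, 13673 genes were called. The counts of each gene list below are read against these shares. Members and lists are given by symbol, and positions are on GRCm38.

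The 5 nuclear protein-coding genes with the most reads in AGES were Gfap, Sparc, Vim, Pea15a and Scd2, and in neoAC direct they were Ptprz1, Apoe, Ncan, Scd2 and Cpe (shares of counts, not corrected for transcript length). Gfap alone took 4.41 to 4.79% of AGES counts and 0.145 to 0.179% of neoAC direct counts. Scd2, a fatty acid desaturase, was the 1 gene on both lists, at 7766 ± 908 CPM against 9121 ± 563 CPM, and was not called, although it was called lower with DESeq2's size factors (log2 fold change -0.28). Cpe, the carboxypeptidase that trims neuropeptides, was at 636 ± 146 CPM against 7911 ± 499 CPM (log2 fold change -3.64 ± 0.15). Pea15a, a phosphoprotein of astrocytes that binds ERK, was at 7810.0 ± 1642 CPM against 2604 ± 318 CPM (1.58 ± 0.12).

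Among genes that reached 10 CPM in the higher group with no overlap between libraries, 7 of the 12 protein-coding genes with the largest differences toward AGES were Hox genes. Among the others were C3, the eye-field homeobox gene Vax2, the klotho-related Lctl and Lrrc14b. The Hox genes passed the filter through the groups in which they were read, so their number here is not evidence about the family. Lctl was at 79.7, 62.6, 187 and 103 CPM in AGES and 0.0975, 0.0831, 0.102 and 0.0665 CPM in neoAC direct. The 12 largest toward neoAC direct were Ptpn5, Cdh5, Kif26a, Rhcg, Ryr1, Dcc, Elavl4, C330018D20Rik, Cntnap5b, Myom3, Grm5 and Dach1. Ptpn5, the striatum-enriched tyrosine phosphatase STEP, was at 43.98, 51.4, 45.7 and 33.6 CPM in neoAC direct and had no read in any AGES library. Set against 3 counts per library, Ptpn5 was at least 438-fold lower in AGES, Kif26a, a kinesin-like protein, at least 221-fold and Rhcg, an ammonium transporter, at least 200.5-fold. Cdh5, the cadherin of endothelial junctions, and Elavl4, an RNA-binding protein of neurons, belong to cell types other than astrocytes.

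**Figure D1:**
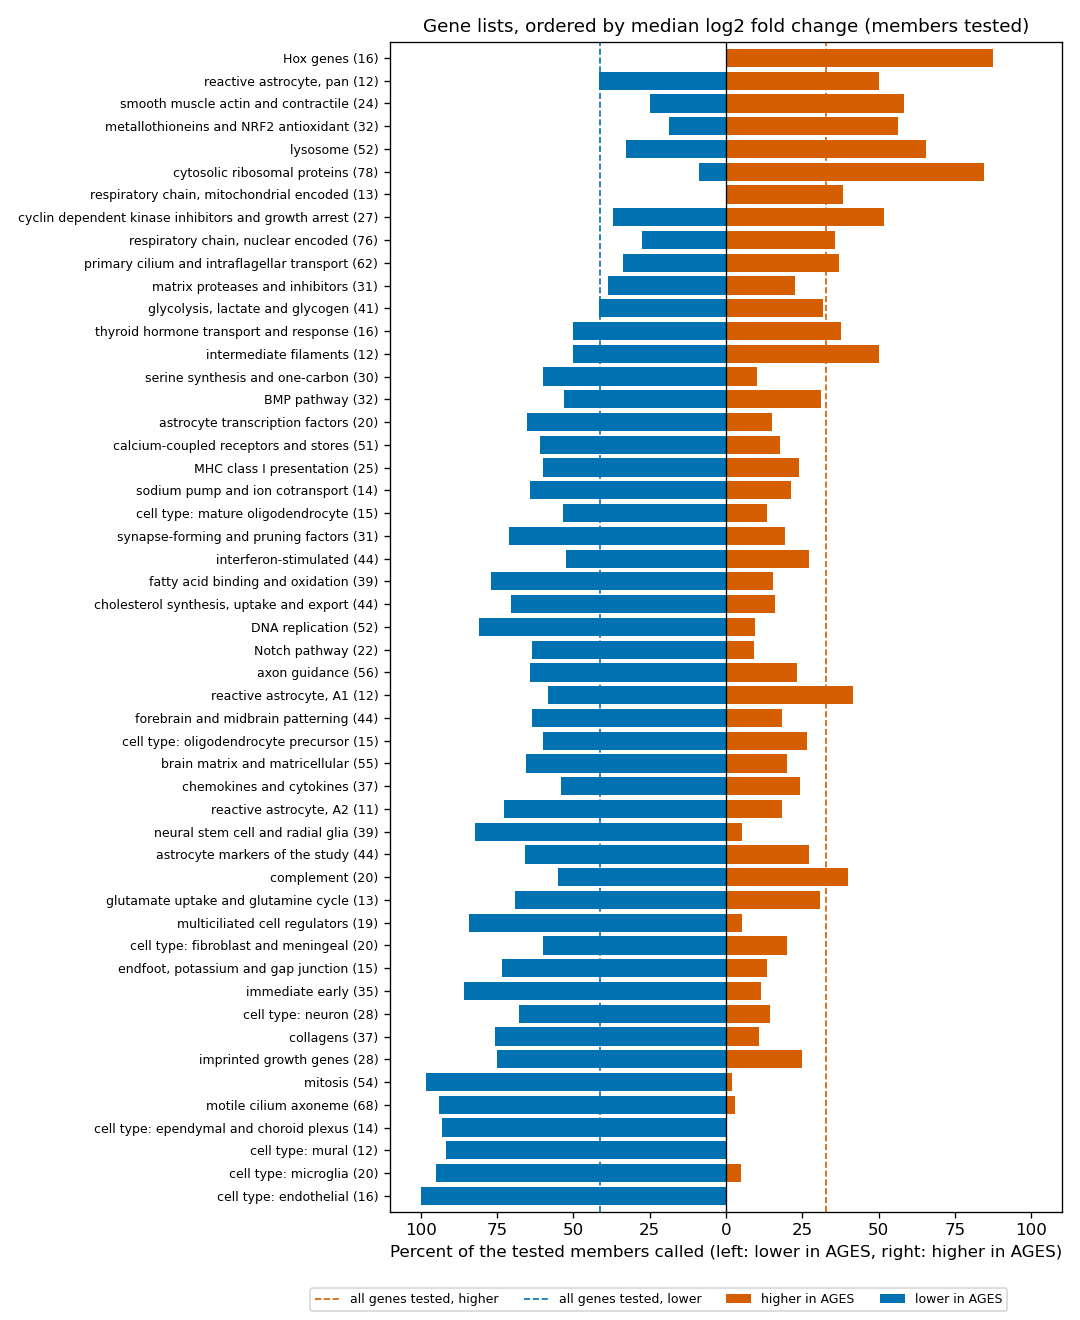
For each gene list with 10 or more members tested, the bars give the percent of tested members called lower (left, blue) or higher (right, orange) in AGES against neoAC direct, with the number tested in brackets and the lists ordered by median log2 fold change. Dashed lines give the shares over all genes tested (32.8% higher, 41.1% lower). Mitosis and motile cilium genes lie almost wholly on the left, cytosolic ribosomal protein genes mostly on the right. The Hox bar holds only the 16 of 39 genes that passed the filter. They did so through the groups in which they were read, so its side is not evidence about the family.

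Markers of most other cell types were lower in AGES than in neoAC direct. The 16 endothelial markers tested were all lower in AGES, with sums of 3.92 to 5.598 CPM in AGES and 155 to 604 CPM in neoAC direct. Of 20 microglial markers 19 were lower, but the sums, 89.9 to 95.7 CPM in AGES and 46.9 to 165 CPM in neoAC direct, overlapped. Of 12 mural markers 11 were lower, with sums of 131 to 146 CPM in AGES and 800.4 to 1288 CPM in neoAC direct, and the 9 erythroid genes summed to 0.128 to 0.296 CPM in AGES and 9.04 to 67.1 CPM in neoAC direct. Replicate 2 of neoAC direct was the highest in all 4 of these sums.

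Several markers had no read in any AGES library. Among them were Cdh5, the complement gene C1qb and the receptor Fcrls of microglia, and the neuronal genes Gad2, Slc17a6 and Elavl4. These are among the lower members of their lists, and some defining neuronal markers were higher in AGES. In neoAC direct, Cldn5, the tight junction protein of brain endothelium, was at 33.9, 94.7, 20.4 and 24.6 CPM, and Csf1r, the receptor on which microglia depend, at 5.27, 29.9, 8.02 and 9.02 CPM. The choroid plexus gene Ttr was at 1.01, 1.04, 1.02 and 0.757 CPM in AGES and 934, 1194, 1157 and 557 CPM in neoAC direct, and ependymal and choroid plexus markers summed to 71.4 to 99.2 CPM in AGES and 868 to 1569.6 CPM in neoAC direct. Of 28 neuronal markers 19 were lower in AGES and 4 higher, but of the 10 with 10 counts in each library 3 were lower and 4 higher. Even so, the neuronal sums were alike, 654 to 718 CPM in AGES and 642 to 794 CPM in neoAC direct, since Map2 and Mapt, which glia also express, made up most of both. Oligodendrocyte precursor markers summed to 622 to 922 CPM in AGES and 1152 to 1549.7 CPM in neoAC direct, with 9 of 15 members lower and 4 higher. Olig2, a factor of the lineage, was at 44.6 ± 5.13 CPM against 206 ± 28.8 CPM. On the higher side stood Bcas1, a gene of myelinating cells, at 54.6 ± 5.04 CPM against 3.42 ± 0.962 CPM (3.98 ± 0.25), and Tnr, the matrix protein tenascin-R, at 360.3 ± 88.7 CPM against 54.2 ± 7.34 CPM (2.73 ± 0.16). Enpp6, of newly formed oligodendrocytes, was higher as well, at 4.797 ± 0.960 CPM against 0.300 ± 0.0715 CPM (3.98 ± 0.31). Pdgfra, the growth factor receptor of the precursors, was not called, at 12.2 ± 1.89 CPM against 14.8 ± 5.301 CPM. Of 6 pluripotency markers tested 2 were higher in AGES and 2 lower. The list summed to 10.2 to 14.5 CPM in AGES and 233 to 332 CPM in neoAC direct. In neoAC direct 2 members were at 10 CPM or more, and in AGES 0. On the higher side Tdgf1, a co-receptor of the TGF-beta family, was at 1.65 ± 0.741 CPM against 0.434 ± 0.182 CPM (1.93 ± 0.41). The defining factor Pou5f1 was not tested, at a mean of 0.008 CPM in AGES and no read in neoAC direct, and Zfp42 had no read in either group. The part of such cells in each difference below was not tested.

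**Figure D2:**
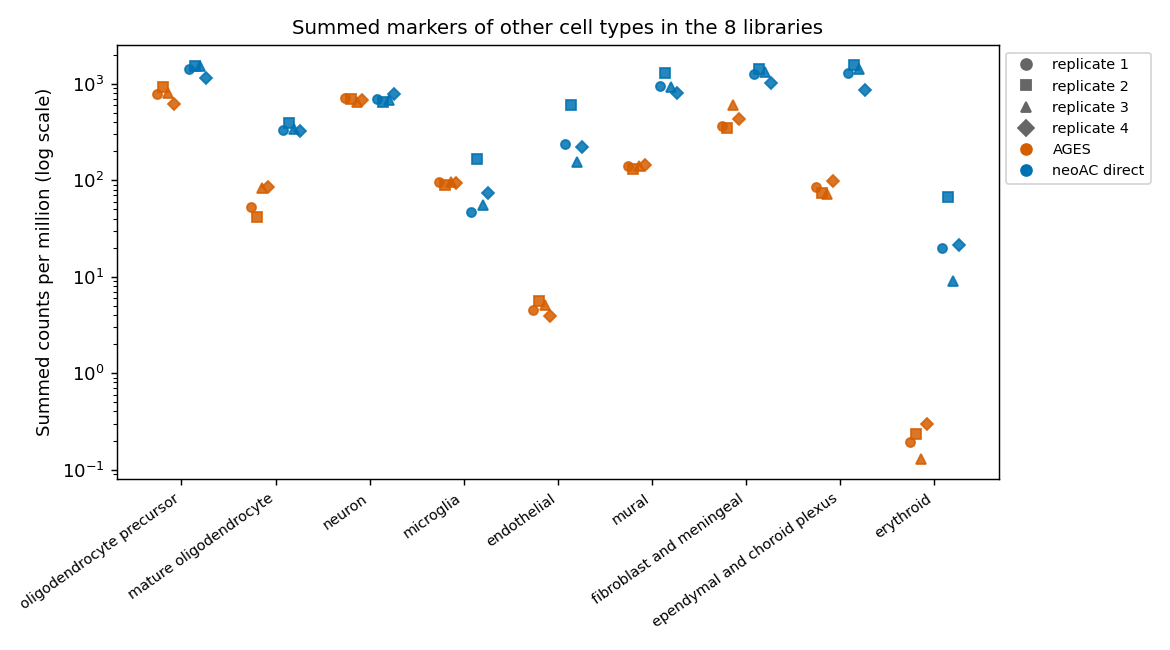
Summed CPM (log scale) of the marker lists of 9 other cell types in each of the 8 libraries, with AGES in orange, neoAC direct in blue and 1 symbol per replicate number. Endothelial sums run from 3.92 to 5.60 CPM in AGES and from 155 to 604 CPM in neoAC direct, where replicate 2 (square) is the highest.

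Among the 44 genes that the study used as astrocyte markers, 29 were lower in AGES and 12 higher, with a median log2 fold change of -2.25. It is the study's own list, applied to these samples, and is not independent evidence of its direction. Those not called were Nfia, Hepacam and Rnf5. Nfia, a factor that starts gliogenesis, was at 225 ± 18.4 CPM against 205 ± 17.3 CPM. Hepacam, a glial adhesion protein, was at 802 ± 139 CPM against 739.6 ± 68.8 CPM. Rnf5, a ubiquitin ligase, was at 88.9 ± 5.44 CPM against 85.1 ± 15.9 CPM. All 44 were at 10 CPM or more in neoAC direct and 37 were in AGES. Among those higher in AGES, Cd44, the hyaluronan receptor, was at 543, 465, 836 and 970.1 CPM in AGES and 43.7, 38.96, 45.6 and 46.2 CPM in neoAC direct (log2 fold change 4.01 ± 0.18). The groups were far apart, and AGES replicates 3 and 4 were the highest. Mgst1, a microsomal glutathione transferase, was at 156 ± 7.54 CPM against 69.9 ± 4.68 CPM (1.16 ± 0.09).

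Genes of glutamate uptake and the glutamine cycle were mostly lower in AGES: 9 of 13 tested were lower and 4 higher, with a median of -2.41. Slc1a3, the transporter GLAST, was at 1517, 1279.7, 958 and 1304 CPM in AGES and 6559.8, 6229, 6727 and 7372 CPM in neoAC direct (log2 fold change -2.41 ± 0.14, edgeR adjusted p = 3.01e-14). Slc1a2, the transporter GLT-1, was at 486, 388, 621 and 692 CPM in AGES and 5455, 5838, 4934 and 6488 CPM in neoAC direct (-3.38 ± 0.19, edgeR adjusted p = 1.40e-14). Glul, glutamine synthetase, was at 468, 427, 442 and 389.5 CPM in AGES and 3492, 3822, 3737 and 3482 CPM in neoAC direct (-3.07 ± 0.13, edgeR adjusted p = 4.71e-17). All 3 genes were well above detection in AGES, and in none did a library overlap the other group. Slc38a3, which exports glutamine, was at 36.2 ± 5.52 CPM against 867 ± 111 CPM (-4.58 ± 0.14). The amino acid exchangers were close to 0 in AGES. Slc7a11, the cystine/glutamate exchanger, was at 1.34 ± 0.500 CPM against 309 ± 66.8 CPM (-7.84 ± 0.28). Slc7a10, which carries serine and glycine, was at 0.431 ± 0.182 CPM against 335 ± 47.3 CPM (-9.60 ± 0.26). The glutamine importers went the other way. Slc38a1 was at 746 ± 182 CPM against 86.4 ± 18.7 CPM (3.11 ± 0.15). Slc38a2 was at 357 ± 114 CPM against 109 ± 20.4 CPM (1.71 ± 0.19). Both were higher in AGES.

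Endfoot, potassium and gap junction genes were mostly lower in AGES. Of 15 tested, 11 were lower and 2 higher, with a median of -2.84. Gja1, connexin 43, was at 20.4, 11.8, 3.69 and 5.398 CPM in AGES and 1297, 1398, 1196 and 1546 CPM in neoAC direct (log2 fold change -7.05 ± 0.36, edgeR adjusted p = 2.52e-14). The AGES libraries lay further apart in proportion than the neoAC direct ones, and the highest AGES library was still far below the lowest neoAC direct one. The other astrocytic connexins were lower too. Gjb6, connexin 30, was at 0.230 ± 0.0292 CPM against 23.4 ± 6.43 CPM (-6.65 ± 0.29). Gjb2, connexin 26, was at 0.0178 ± 0.0207 CPM against 14.7 ± 2.69 CPM, with a ratio of 898 (95% counting interval 248 to 7425) of neoAC direct over AGES. Kcnj10, the potassium channel Kir4.1, was at 20.2, 14.2, 9.16 and 24.5 CPM in AGES and 838, 919.7, 829.8 and 1017 CPM in neoAC direct (-5.73 ± 0.26). Lama2, the laminin chain of the vascular basement membrane, was at 0.205 ± 0.0133 CPM against 112 ± 11.3 CPM (-9.06 ± 0.19). The 2 genes higher in AGES were Mlc1 and Dag1. Mlc1, a membrane protein of endfeet, was at 2881 ± 104 CPM against 1772 ± 117 CPM (0.70 ± 0.10). Dag1, dystroglycan, was at 1562 ± 142 CPM against 1066 ± 74.6 CPM (0.55 ± 0.09). Aqp4, the endfoot water channel, was at 245 ± 67.8 CPM against 1752 ± 386 CPM (-2.84 ± 0.22), with every AGES library below every neoAC direct one.

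Of 14 genes of the sodium pump and of ion-coupled transport tested, 9 were lower in AGES and 3 higher, with a median of -1.10. The pump subunit Atp1b2, through which the neonatal cells were selected, was at 911 ± 120.5 CPM against 1859 ± 127 CPM (log2 fold change -1.03 ± 0.14). The GABA transporter Slc6a11, GAT-3, was at 3.24 ± 1.09 CPM against 4247 ± 521 CPM (-10.35 ± 0.24). Slc4a4, the sodium bicarbonate cotransporter, was at 58.9 ± 25.2 CPM against 1996 ± 125 CPM (-5.08 ± 0.22).

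Of 20 transcription factors of the astrocyte lineage 13 were lower and 3 higher, with a median of -0.75. Besides Nfia, Nfix was not called, at 453 ± 51.3 CPM against 508 ± 69.8 CPM, although it was called lower with DESeq2's size factors (-0.22) and without neoAC direct replicate 4 (-0.26). Zbtb20, a repressor that promotes astrocyte formation, was not called either, at 318 ± 19.3 CPM against 278 ± 51.8 CPM. Sox9, needed for gliogenesis, was at 274 ± 34.02 CPM against 559 ± 88.2 CPM (-1.03 ± 0.12). Rfx4, a winged-helix factor, was at 101 ± 19.8 CPM against 164 ± 7.68 CPM (-0.70 ± 0.12). Hopx, a homeodomain protein of forebrain radial glia, was at 9.63 ± 3.83 CPM against 128 ± 13.9 CPM (-3.73 ± 0.25). Rorb, a nuclear receptor of forebrain astrocytes, was at 10.1 ± 1.44 CPM against 63.4 ± 5.31 CPM (-2.65 ± 0.10). Dbx2, a homeobox factor, was at 0.0663 ± 0.0272 CPM against 105 ± 7.89 CPM (-10.56 ± 0.25). Glis3, a Krüppel-like zinc finger factor, was at 112 ± 7.43 CPM against 34.02 ± 1.81 CPM (1.72 ± 0.09) and was higher in AGES.

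**Figure D3:**
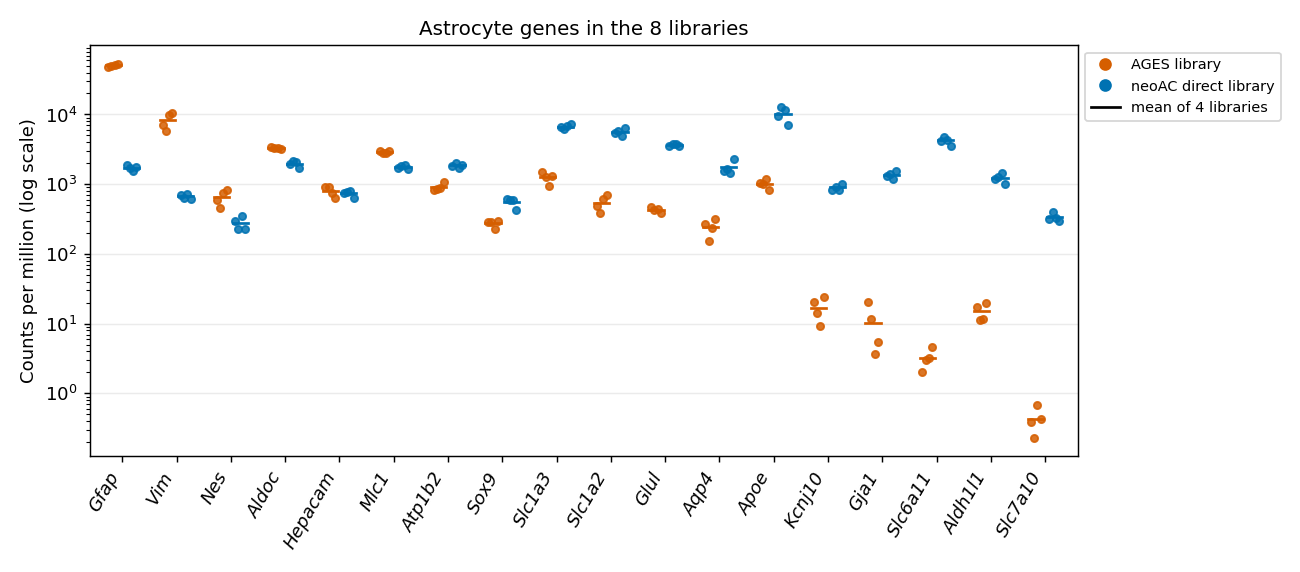
Level of 18 astrocyte genes in CPM (log scale) in each AGES library (orange) and neoAC direct library (blue), with a line at the mean of 4 libraries. Mean Gfap is 50503 CPM in AGES and 1722 CPM in neoAC direct, Hepacam overlaps between the groups, and Gja1, Slc6a11 and Slc7a10 lie far lower in AGES.

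The intermediate filaments of glia were higher in AGES. Gfap (chromosome 11, 102887336 to 102900912, minus strand) was at 48346, 50245, 50485 and 52936 CPM in AGES and 1866, 1727, 1546 and 1749 CPM in neoAC direct (log2 fold change 4.87 ± 0.16, edgeR adjusted p = 3.99e-19). Vim, vimentin, was at 7016, 5816, 9873 and 10534 CPM in AGES and 706, 634, 730.4 and 621 CPM in neoAC direct (3.63 ± 0.15). Nes, nestin, was at 594, 459, 756 and 817 CPM in AGES and 301, 227, 348 and 231 CPM in neoAC direct (1.25 ± 0.16). AGES replicates 3 and 4 had the most Vim, and no AGES library overlapped a neoAC direct library for any of the 3 genes. Prph, peripherin, was at 12.1 ± 3.77 CPM against 1.01 ± 0.215 CPM (3.58 ± 0.25). Keratins and neurofilaments were at low levels in both groups and lower in AGES, with the keratin Krt18 at 0.0751 ± 0.0682 CPM against 2.14 ± 0.569 CPM. Nefm, the middle neurofilament chain, was at 0.0397 ± 0.0314 CPM against 2.05 ± 0.467 CPM. Of the 12 genes tested, 6 were higher and 6 lower, with a median of -0.44.

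Direct targets of BMP signalling went both ways, several of them higher in AGES. AGES had been given BMP4, and its part in these differences was not tested. Id1, an inhibitor of differentiation factors, was at 522, 612, 678 and 649.8 CPM in AGES and 179.7, 149.9, 189.6 and 115 CPM in neoAC direct (log2 fold change 1.96 ± 0.16). Its relative Id3 was at 1062 ± 71.9 CPM against 627 ± 98.2 CPM (0.76 ± 0.15). Id2 was not called, at 474 ± 51.2 CPM against 428 ± 26.97 CPM. The feedback inhibitors of the pathway were higher. Smad6 was at 29.9 ± 8.09 CPM against 10.7 ± 1.14 CPM (1.49 ± 0.21). Smad7 was at 60.7 ± 20.98 CPM against 15.3 ± 1.26 CPM (1.98 ± 0.18). The decoy receptor Bambi was at 33.3 ± 4.32 CPM against 15.5 ± 2.01 CPM (1.10 ± 0.12). Atoh8, a helix-loop-helix target of BMP receptors, was at 55.4 ± 5.998 CPM against 6.74 ± 0.627 CPM (3.04 ± 0.17). Bmp4 itself had no read in any AGES library and was at 2.34, 1.72, 1.22 and 1.63 CPM in neoAC direct. Noggin (Nog), a BMP antagonist, was at 19.4, 28.5, 52.5 and 19.3 CPM in AGES and 23.5, 23.9, 29.3 and 20.2 CPM in neoAC direct, where the groups overlapped and AGES replicate 3 was the highest of all. The homeobox target Msx2 was at 0.00801 ± 0.0160 CPM against 4.36 ± 0.964 CPM. Msx1 was at 9.12 ± 1.55 CPM against 19.2 ± 2.75 CPM (-1.07 ± 0.16). Both were lower in AGES. Over the 32 pathway genes tested, 10 were higher and 17 lower, with a median of -0.72. Over all genes tested the shares were 32.8% higher and 41.1% lower.

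Notch targets were lower in AGES. Hes5, the main Notch target of radial glia and young astrocytes, was at 3.71, 6.41, 3.27 and 3.82 CPM in AGES and 569, 550.4, 612 and 308 CPM in neoAC direct (log2 fold change -6.88 ± 0.33). Nrarp, a feedback inhibitor of Notch, was at 1.77 ± 0.407 CPM against 409 ± 59.3 CPM (-7.86 ± 0.27). Of its targets, Hey2 was at 0.0755 ± 0.0323 CPM against 32.2 ± 3.11 CPM (-8.69 ± 0.28). Heyl was at 0.0420 ± 0.0399 CPM against 46.98 ± 7.84 CPM (-10.03 ± 0.37). Hes1 was at 21.1 ± 2.56 CPM against 103 ± 9.26 CPM (-2.28 ± 0.20). The receptor Notch1 was at 506 ± 52.8 CPM against 637 ± 108 CPM (-0.33 ± 0.12), with libraries that overlapped, and the call was lost without AGES replicate 4 or neoAC direct replicate 1 or 3 (-0.27 to -0.29). The ligand Dll1 was not called, at 17.4 ± 3.30 CPM against 19.4 ± 2.03 CPM. Numb, which antagonises Notch, was at 49.6 ± 6.81 CPM against 32.97 ± 1.305 CPM (0.59 ± 0.09). Of 22 pathway genes tested, 14 were lower and 2 higher, with a median of -1.58.

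Positional factors separated the groups. Hox genes lie in 4 clusters, are read in sequence along the body axis and are silent in the forebrain. Of 39 Hox genes, 13 were at 1 CPM or more in AGES and 0 in neoAC direct. Among the 39, 26 had no read in any neoAC direct library. Counted over all 39, tested or not, 18 were higher in AGES without overlap. The share of such genes over all genes tested was 29.4%, which leaves out genes that did not pass the filter. The 16 that passed the filter did so through the groups in which they were read, so their fold changes are not evidence about the family. Hoxa5 was at 64.2, 69.4, 64.6 and 61.8 CPM in AGES and 0, 0.0277, 0.0340 and 0.0333 CPM in neoAC direct. Hoxa2 was at 35.4, 42.2, 37.3 and 31.04 CPM in AGES and 0.0325, 0, 0 and 0.0333 CPM in neoAC direct. The reads centred on the front part of the Hoxa cluster on chromosome 6 and on Hoxb2, Hoxb3 and Hoxb4 on chromosome 11. Hoxa3 was at 18.8 ± 1.10 CPM, Hoxa7 at 16.01 ± 2.27 CPM, Hoxb3 at 15.9 ± 1.11 CPM, Hoxb4 at 11.1 ± 0.257 CPM and Hoxb2 at 10.1 ± 0.717 CPM in AGES. Hoxa10 was at 6.51 ± 0.282 CPM in AGES and at 0 in neoAC direct, at least 68.1-fold higher.

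Factors of the forebrain stood the other way round. Emx1, a marker of the dorsal telencephalon, had no read in AGES and was at 9.72, 9.08, 10.8 and 6.19 CPM in neoAC direct. Otx2, a forebrain and midbrain factor, was at 0.0162 ± 0.0187 CPM against 19.7 ± 1.89 CPM. Dmrt3, a cortical factor, had no read in AGES and was at 5.17, 3.19, 4.14 and 3.73 CPM in neoAC direct. Nr2e1, the stem cell factor Tlx, was at 0.330 ± 0.101 CPM against 172 ± 16.0 CPM (log2 fold change -9.01 ± 0.21, edgeR adjusted p = 3.54e-22). Of the cortical factors, Emx2, Otx1 and Lhx2 were lower in AGES but still read. Emx2 was at 4.77 ± 0.711 CPM against 67.5 ± 5.77 CPM. Otx1 was at 7.47 ± 1.08 CPM against 51.3 ± 5.903 CPM. Lhx2 was at 11.4 ± 1.27 CPM against 231 ± 36.2 CPM. The engrailed genes of the midbrain and hindbrain boundary were higher in AGES. En1 was at 10.6, 15.1, 13.8 and 9.18 CPM in AGES and 0.683, 0.222, 0.102 and 0.166 CPM in neoAC direct. En2 was at 17.5, 18.4, 19.96 and 18.4 CPM in AGES and 1.203, 1.02, 0.679 and 0.532 CPM in neoAC direct. Pax7, of the dorsal midbrain and spinal cord, was at 9.01, 8.18, 8.49 and 8.85 CPM in AGES and 0.130, 0.997, 0.272 and 0.166 CPM in neoAC direct, with the lowest AGES library above the highest neoAC direct one. Pax6 was not called, at 108 ± 11.2 CPM against 98.8 ± 8.38 CPM. Of 44 forebrain and midbrain factors tested, 28 were lower in AGES and 8 higher, with a median of -1.81.

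**Figure D4:**
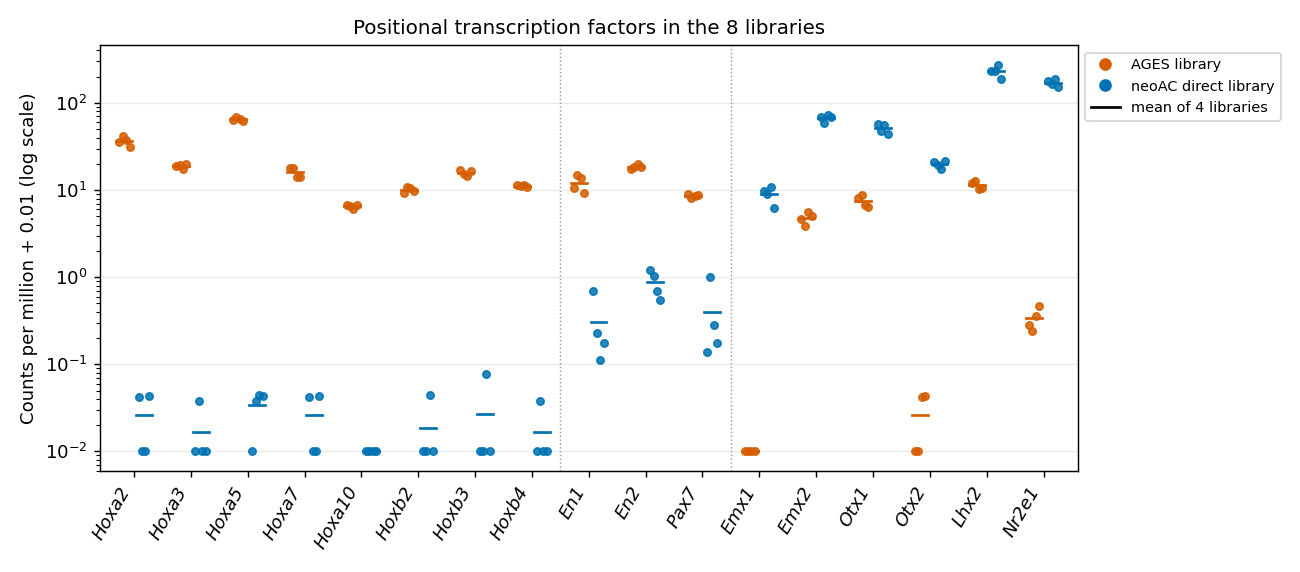
Level of 17 positional transcription factors in CPM plus 0.01 (log scale) in each library, with Hox genes on the left, En1, En2 and Pax7 in the middle and forebrain factors on the right. Hox genes lie between 5 and 70 CPM in AGES and near 0 in neoAC direct; Emx1 and Otx2 lie near 0 in AGES and between 6 and 22 CPM in neoAC direct.

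Genes of neural stem cells and radial glia were lower in AGES, 32 of 39 tested with a median of -2.21, and 2 were higher. Fabp7, the brain lipid-binding protein, was at 396, 353, 259.7 and 466 CPM in AGES and 6009, 5086, 6686 and 5815 CPM in neoAC direct, without overlap. Ptprz1, a receptor phosphatase of radial glia, was at 459.6, 377, 234 and 343 CPM in AGES and 10740.5, 9692, 10108 and 12626 CPM in neoAC direct (-4.93 ± 0.16). Sox1, a factor of neural progenitors, was at 0.432 ± 0.171 CPM against 136 ± 12.6 CPM (-8.28 ± 0.16). Prom1, prominin, was at 0.133 ± 0.0302 CPM against 87.9 ± 11.2 CPM (-9.34 ± 0.23). Sox2, a relative of Sox1, was at 219.8 ± 35.5 CPM against 368 ± 30.97 CPM (-0.74 ± 0.11). Targets of FGF and EGF signalling were among the lower genes, with Dusp6, an ERK phosphatase, at 5.22 ± 0.800 CPM against 77.4 ± 9.83 CPM (-3.89 ± 0.21). Spry4, a feedback inhibitor, was at 9.36 ± 4.43 CPM against 77.2 ± 10.7 CPM (-3.05 ± 0.32). Etv4, an ETS factor, was at 3.91 ± 1.69 CPM against 304 ± 45.3 CPM (-6.28 ± 0.39). Etv5, another ETS factor, was at 32.3 ± 6.13 CPM against 244 ± 24.6 CPM (-2.92 ± 0.17). Their receptors were lower too. Egfr was at 81.7 ± 11.6 CPM against 322 ± 17.2 CPM (-1.98 ± 0.09). Fgfr3 was at 172 ± 9.18 CPM against 1086 ± 139 CPM (-2.66 ± 0.22).

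Genes of DNA replication and mitosis were lower in AGES. Entry into S phase is driven by E2F factors, and late genes of G2 and mitosis are held down in resting cells by the DREAM complex at the CHR element. In the 300 bases around the start of transcription (250 before and 50 after it, RefSeq, GRCm38.p6), an E2F site written as TTTCCCGC, TTTGGCGC, TTTCGCGC or TTTGCCGC on either strand was found in 18 of 42 replication genes with a window (42.9%), against 2.6% of all 27025 genes of the table. The CHR, written as TTTGAA or TTCGAA on either strand, was found in 33 of 44 mitosis genes (75%), against 21.7% of all genes. The opposite pairings gave 3 of 44 mitosis genes with the E2F letters (6.82%) and 10 of 42 replication genes with the CHR letters (23.8%). Over the 12648 tested genes with a window, the shares were 4.1% for the E2F letters and 16.5% for the CHR letters. A match is a run of letters, and not a site known to be bound. A pair of windows of each class is shown, chosen to let the motif be seen in place, with all matches to the motif of that class in capitals, overlapping ones included. They are Mcm5 (chr8:75109259-75109558, plus strand) and Cdc6 (chr11:98907901-98908200, plus strand), which load the replicative helicase, and the mitotic kinases Cdk1 (chr10:69352863-69353162, minus strand) and Plk1 (chr7:122159185-122159484, plus strand).
Mcm5: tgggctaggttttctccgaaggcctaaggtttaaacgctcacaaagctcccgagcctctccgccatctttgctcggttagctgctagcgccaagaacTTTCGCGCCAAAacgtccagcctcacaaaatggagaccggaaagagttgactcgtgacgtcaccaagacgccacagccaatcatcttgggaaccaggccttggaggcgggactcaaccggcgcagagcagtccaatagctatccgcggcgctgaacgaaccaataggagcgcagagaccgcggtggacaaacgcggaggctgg
Cdc6: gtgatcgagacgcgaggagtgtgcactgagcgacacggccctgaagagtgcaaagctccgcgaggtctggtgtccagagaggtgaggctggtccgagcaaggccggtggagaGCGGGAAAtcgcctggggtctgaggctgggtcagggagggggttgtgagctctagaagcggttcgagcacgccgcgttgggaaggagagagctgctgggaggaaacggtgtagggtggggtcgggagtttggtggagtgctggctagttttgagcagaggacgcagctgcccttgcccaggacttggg
Cdk1: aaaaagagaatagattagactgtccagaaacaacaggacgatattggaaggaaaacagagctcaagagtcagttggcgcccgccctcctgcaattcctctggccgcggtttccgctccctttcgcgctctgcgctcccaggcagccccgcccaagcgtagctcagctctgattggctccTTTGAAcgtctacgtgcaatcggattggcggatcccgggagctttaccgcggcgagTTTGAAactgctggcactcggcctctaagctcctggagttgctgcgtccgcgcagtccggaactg
Plk1: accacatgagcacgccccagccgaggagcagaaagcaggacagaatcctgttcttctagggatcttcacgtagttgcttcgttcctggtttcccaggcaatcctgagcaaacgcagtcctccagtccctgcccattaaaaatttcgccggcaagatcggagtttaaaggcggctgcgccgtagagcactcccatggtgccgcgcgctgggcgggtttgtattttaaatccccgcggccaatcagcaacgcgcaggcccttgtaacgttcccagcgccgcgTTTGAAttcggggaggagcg
The first motif begins at position -153 from the start in Mcm5, -138 in Cdc6, -71 in Cdk1 and 30 in Plk1.

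Of 54 mitosis genes tested, 53 were lower in AGES and 1, the condensin gene Smc4, was higher, with a median of -4.26. The call of Smc4 (0.33 ± 0.11) was lost without neoAC direct replicate 2 (0.21), with library sizes alone (0.26) and in a fit of the 8 libraries (0.32). Mki67, the proliferation marker Ki-67, was at 0.663, 0.928, 1.31 and 1.02 CPM in AGES and 149, 87.1, 142 and 127 CPM in neoAC direct (log2 fold change -6.99 ± 0.21, edgeR adjusted p = 8.70e-20). Top2a, the topoisomerase of dividing cells, was at 3.67, 2.99, 2.88 and 3.88 CPM in AGES and 153, 94.1, 147 and 136 CPM in neoAC direct (-5.31 ± 0.15). Cdk1 was at 8.15, 6.29, 6.12 and 6.12 CPM in AGES and 47.3, 31.2, 50.7 and 36.4 CPM in neoAC direct (-2.64 ± 0.14). Plk1 was at 0.921 ± 0.151 CPM against 23.8 ± 5.56 CPM (-4.67 ± 0.20). In each of these genes every AGES library lay below every neoAC direct one, and the NSCs from which AGES were made stood higher than both, with Mki67 at 958 ± 81.6 CPM and Top2a at 1408 ± 133 CPM. Ccnb1, cyclin B1, was at 0.551 ± 0.0484 CPM against 32.5 ± 8.38 CPM (-5.87 ± 0.22). Aurkb, Aurora kinase B, was at 0.297 ± 0.0108 CPM against 18.2 ± 4.21 CPM (-5.92 ± 0.25).

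For DNA replication, 42 of 52 genes tested were lower and 5 higher, with a median of -1.42. Mcm5 was at 3.94, 4.03, 3.11 and 3.65 CPM in AGES and 36.3, 29.1, 42.1 and 23.8 CPM in neoAC direct (-3.15 ± 0.21). Cdc6 was at 0.507, 0.580, 0.449 and 0.494 CPM in AGES and 5.88, 4.54, 5.74 and 5.69 CPM in neoAC direct (-3.41 ± 0.25). Other helicase subunits were lower as well. Mcm2 was at 15.6 ± 1.88 CPM against 39.1 ± 10.2 CPM (-1.32 ± 0.17). Mcm3 was at 20.7 ± 3.404 CPM against 53.3 ± 10.96 CPM (-1.36 ± 0.16). Pcna, the polymerase clamp, was at 52.9 ± 5.11 CPM against 94.1 ± 11.9 CPM (-0.83 ± 0.11). The repressive E2F factors were near 0 in AGES. E2f7 was at 0.239 ± 0.0891 CPM against 7.902 ± 0.941 CPM (-4.98 ± 0.19). E2f8 was at 0.113 ± 0.0570 CPM against 11.4 ± 2.85 CPM (-6.59 ± 0.29). Rpa1, the single-strand binding protein, was at 239.9 ± 18.7 CPM against 126 ± 6.51 CPM (0.93 ± 0.10). Pold2, a subunit of polymerase delta, was at 59.8 ± 7.32 CPM against 32.1 ± 6.53 CPM (0.90 ± 0.13). Pole2, a subunit of polymerase epsilon, was at 10.7 ± 0.175 CPM against 5.23 ± 0.955 CPM (1.04 ± 0.17). All 3 were higher in AGES.

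Among the inhibitors of cyclin-dependent kinases, Cdkn2a and Cdkn2b were higher in AGES. Cdkn2a, which encodes p16 and p19ARF (chromosome 4, 89274471 to 89294653), was at 90.5, 96.2, 106 and 94.96 CPM in AGES and 0.163, 0.388, 0.170 and 0.200 CPM in neoAC direct (log2 fold change 8.65 ± 0.20). Its neighbour Cdkn2b, p15 (chromosome 4, 89306299 to 89311039), was at 178, 192, 225 and 188 CPM in AGES and 1.53, 2.58, 1.46 and 0.898 CPM in neoAC direct (6.90 ± 0.34). Both were at 80 CPM or more in every AGES library and under 3 CPM in every neoAC direct library. In the NSCs, Cdkn2a was already at 57.2 ± 11.03 CPM and Cdkn2b at 13.0 ± 6.41 CPM. Of the other INK4 genes, Cdkn2c, p18, was not called, at 55.96 ± 1.44 CPM against 52.5 ± 13.7 CPM. Cdkn2d, p19, was at 20.5 ± 3.27 CPM against 28.3 ± 4.27 CPM (-0.46 ± 0.13), with libraries that overlapped. Of the CIP/KIP genes, Cdkn1a, p21, was not called, at 21.1 ± 7.11 CPM against 18.2 ± 4.67 CPM. Cdkn1b, p27, was at 174 ± 3.12 CPM against 146 ± 7.35 CPM (0.25 ± 0.08). Cdkn1c, the imprinted p57, was at 0.0155 ± 0.0180 CPM against 13.2 ± 1.66 CPM, with a ratio of 808 (95% counting interval 223 to 6677) of neoAC direct over AGES. Of 27 inhibitors and growth arrest genes tested, 14 were higher and 10 lower, with a median of 0.25.

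**Figure D5:**
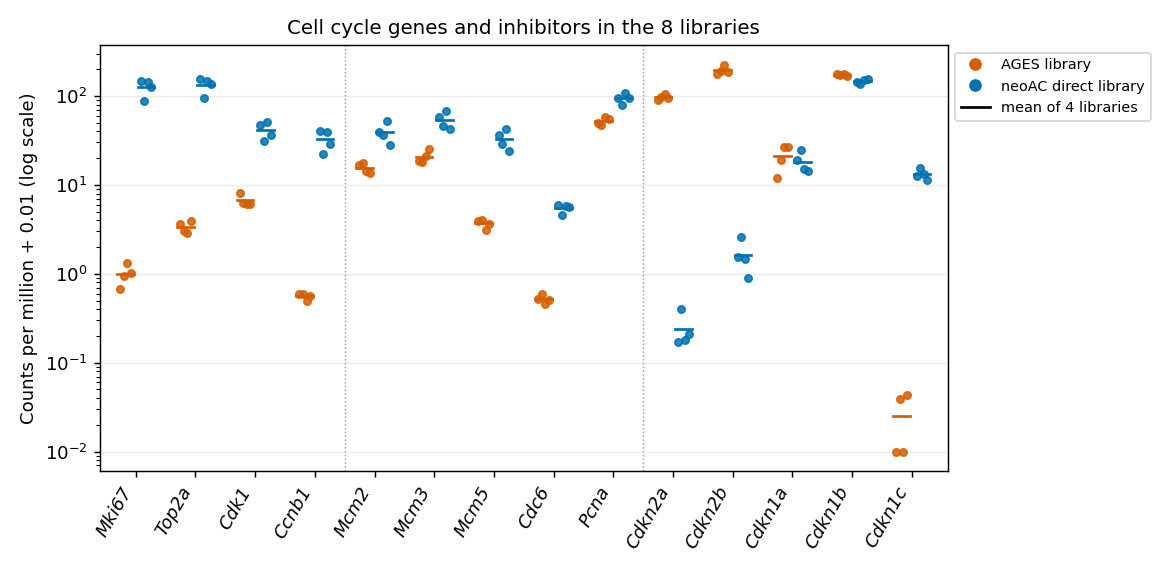
Level of 14 cell cycle genes in CPM plus 0.01 (log scale) in each library, with mitosis genes on the left, replication genes in the middle and kinase inhibitors on the right. Mki67 and Top2a lie below 5 CPM in all AGES libraries and above 80 CPM in all neoAC direct libraries. Cdkn2a and Cdkn2b lie above 80 CPM in AGES and below 3 CPM in neoAC direct.

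Imprinted genes, of which 1 parental copy is silent, were mostly lower in AGES, 21 of 28 tested against 7 higher, with a median of -3.88. Nnat, neuronatin, was at 0.624, 0.899, 0.769 and 1.15 CPM in AGES and 563, 598, 587 and 474 CPM in neoAC direct (log2 fold change -9.31 ± 0.18). Meg3, a maternally expressed RNA, was at 0.246 ± 0.0964 CPM against 88.98 ± 17.7 CPM (-8.52 ± 0.20). H19, another such RNA, was at 0.0503 ± 0.0221 CPM against 52.4 ± 8.002 CPM (-9.95 ± 0.44). Ndn, the paternally expressed necdin, was at 0.202 ± 0.0619 CPM against 143 ± 33.2 CPM (-9.42 ± 0.29). Grb10, an inhibitor of growth factor receptors, was at 0.0542 ± 0.0376 CPM against 34.2 ± 2.58 CPM (-9.13 ± 0.32). The growth factor Igf2 was at 4.74 ± 0.623 CPM against 245 ± 49.8 CPM (-5.69 ± 0.29). All of these were read in every neoAC direct library. Some paternally expressed genes were higher in AGES. Peg3 was at 296 ± 47.3 CPM against 107 ± 10.04 CPM (1.47 ± 0.15). Peg10 was at 115 ± 46.9 CPM against 32.2 ± 2.598 CPM (1.83 ± 0.20). Sgce was at 191 ± 14.4 CPM against 38.4 ± 2.19 CPM (2.32 ± 0.09). Of these, Nnat, Meg3, H19, Ndn and Grb10 were at under 1 CPM in the mean of AGES and of the NSCs, where Meg3 was at 0.208 ± 0.0430 CPM and Nnat at 0.943 ± 0.351 CPM. Igf2 was at 0.297 ± 0.0737 CPM in the NSCs.

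Matrix genes differed in both directions. Collagens were largely lower in AGES, 28 of 37 tested against 4 higher, with a median of -3.83. Among the fibrillar collagens, Col1a1 was at 0.823 ± 0.141 CPM against 60.2 ± 13.4 CPM (-6.19 ± 0.24). Col1a2 was at 0.333 ± 0.0824 CPM against 122 ± 18.6 CPM (-8.52 ± 0.23). Col3a1 was at 0.0974 ± 0.0316 CPM against 66.8 ± 16.8 CPM (-9.35 ± 0.39). These are made mostly by fibroblasts. Of 20 fibroblast and meningeal markers tested, 12 were lower in AGES and 4 higher, with sums of 346 to 611 CPM in AGES and 1012 to 1423 CPM in neoAC direct. Among those higher, Ogn, osteoglycin, was at 53.8 ± 11.2 CPM against 5.79 ± 3.52 CPM (3.22 ± 0.27), and Twist1, a mesenchymal factor, was at 9.47 ± 0.825 CPM against 0.550 ± 0.219 CPM (4.09 ± 0.21). Col4a1, of basement membranes, was not called, at 311 ± 99.2 CPM against 359 ± 136 CPM. Col5a1, of collagen V, was at 223 ± 101 CPM against 40.2 ± 4.799 CPM (2.47 ± 0.22). Col6a1 was at 78.5, 82.98, 198 and 63.5 CPM in AGES and 26.5, 20.96, 16.2 and 23.4 CPM in neoAC direct (2.28 ± 0.42). Both were higher in AGES, the last with replicate 3 well above the other AGES libraries.

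In the matrix of the brain, 36 of 55 genes were lower in AGES and 11 higher, with a median of -1.90. Ncan, the lectican neurocan, was at 3130.1, 3308, 4500.2 and 4933 CPM in AGES and 9730.5, 9671, 10139 and 7716 CPM in neoAC direct (log2 fold change -1.23 ± 0.16). Bcan, the lectican brevican, was at 1319 ± 140.0 CPM against 3798 ± 636 CPM (-1.53 ± 0.14). Vcan, the lectican versican, was at 23.9 ± 13.8 CPM against 483 ± 67.95 CPM (-4.34 ± 0.25). Their link protein Hapln1 was at 0.130 ± 0.0276 CPM against 115 ± 26.3 CPM (-9.73 ± 0.25). Has2, which makes hyaluronan, was at 0.0262 ± 0.0322 CPM against 36.3 ± 9.49 CPM. Neurocan and brevican were thus still abundant in AGES, while the link protein and the synthase were near 0. Fn1, fibronectin, was at 3256, 3456, 5409 and 2650.2 CPM in AGES and 153, 294, 106 and 132 CPM in neoAC direct (4.43 ± 0.30). Sparc, a collagen-binding matricellular protein, was at 8206, 7391, 11230.4 and 7990.0 CPM in AGES and 1609.6, 2025, 1536 and 1463 CPM in neoAC direct (2.39 ± 0.16). Both were higher in every AGES library, with replicate 3 the highest. Genes of the basement membrane went both ways. Lama4, a laminin chain of vessels, was at 0.0680 ± 0.0756 CPM against 88.6 ± 11.5 CPM (-10.16 ± 0.32) and, like Lama2, was lower in AGES. Hspg2, perlecan, was at 465 ± 137 CPM against 79.5 ± 26.01 CPM (2.55 ± 0.19). Lamc1, the common gamma chain of laminins, was at 944 ± 252 CPM against 246 ± 25.4 CPM (1.94 ± 0.13). Those 2 were higher in AGES. Among 31 proteases and inhibitors 12 were lower and 7 higher, with a median of -0.02. Mmp14, the membrane-bound matrix metalloprotease, was at 0.507, 0.551, 0.705 and 0.625 CPM in AGES and 659, 689, 719 and 526 CPM in neoAC direct (-10.07 ± 0.16). Htra1, a secreted serine protease, was at 2.64 ± 0.111 CPM against 588 ± 52.3 CPM (-7.80 ± 0.21). Timp2, which inhibits metalloproteases, was at 1920.5 ± 169 CPM against 187 ± 3.56 CPM (3.36 ± 0.12). Serpinf1, a secreted serpin, was at 1028 ± 320.5 CPM against 89.2 ± 14.2 CPM (3.53 ± 0.20). Each of the pair was higher in AGES.

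Contractile genes were more often higher than lower, 14 of 24 against 6, with a median of 1.01. Cald1, caldesmon, was at 313 ± 23.97 CPM against 41.8 ± 11.96 CPM (2.90 ± 0.16). Tpm1, tropomyosin, was at 188 ± 33.01 CPM against 58.9 ± 6.73 CPM (1.67 ± 0.12). The genes that mark smooth muscle were low in both groups, with Acta2, smooth muscle actin, at 5.59 ± 2.03 CPM against 6.26 ± 1.63 CPM and not called. Tagln, transgelin, was at 2.83 ± 0.568 CPM against 15.4 ± 1.22 CPM (-2.44 ± 0.17).

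Reactive astrocyte genes did not differ as a block. Of 12 genes of the general reactive list 6 were higher and 5 lower (median 1.44), of 12 of the A1 list 5 were higher and 7 lower (-1.80), and of 11 of the A2 list 2 were higher and 8 lower (-2.14). The A1 count turned among its 6 members with 10 counts in each library, of which 4 were higher and 2 lower. C3, the central complement component (chromosome 17, 57203970 to 57228136), was at 1142, 965, 1647 and 2733 CPM in AGES and 1.17, 1.301, 1.43 and 1.26 CPM in neoAC direct (log2 fold change 10.29 ± 0.41, edgeR adjusted p = 3.43e-16). Cp, the ferroxidase ceruloplasmin, was at 1181, 912, 2523 and 2386 CPM in AGES and 14.5, 11.2, 9.38 and 18.8 CPM in neoAC direct (7.02 ± 0.34). Lcn2, lipocalin 2, was at 9.09, 4.03, 29.5 and 142 CPM in AGES and 0.390, 0.443, 0.442 and 0.366 CPM in neoAC direct (6.80 ± 1.01, edgeR adjusted p = 4.68e-06). Serpina3n, a protease inhibitor of injured tissue, was at 112, 118, 420.0 and 764 CPM in AGES and 93.9, 87.98, 82.2 and 86.8 CPM in neoAC direct (2.01 ± 0.42). All 4 were higher in every AGES library, and in all 4 both AGES replicates 3 and 4 lay above replicates 1 and 2, most of all for Lcn2 in replicate 4. On the other side, Osmr, the oncostatin M receptor, was at 0.0478 ± 0.0264 CPM against 17.1 ± 3.54 CPM (-8.34 ± 0.30). Amigo2, an adhesion protein, was at 0.0675 ± 0.0293 CPM against 9.09 ± 0.933 CPM (-7.03 ± 0.24). The A2 gene Ptx3, pentraxin 3, was at 0.0963 ± 0.0348 CPM against 48.05 ± 5.81 CPM (-8.88 ± 0.32), and Ptgs2, cyclooxygenase 2, had no read in AGES and was at 8.29, 5.54, 5.37 and 8.15 CPM in neoAC direct.

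Among other complement genes, Serping1, the C1 inhibitor, was at 51.4 ± 5.37 CPM against 7.08 ± 1.12 CPM (2.86 ± 0.19). C1ra, a protease of the C1 complex, was at 12.9 ± 6.15 CPM against 0.625 ± 0.111 CPM (4.36 ± 0.31). Cd59a, which blocks the membrane attack complex, was at 36.9 ± 9.603 CPM against 2.06 ± 0.533 CPM (4.15 ± 0.23). All 3 were higher in AGES. The microglial C1qa, C1qb and C1qc were lower. Of 20 complement genes tested, 8 were higher and 11 lower, with a median of -2.35, but of the 10 with 10 counts in each library 8 were higher and 1 lower. Antigen presentation was mixed. B2m, the light chain of class I molecules, was at 165 ± 38.5 CPM against 63.02 ± 4.21 CPM (1.39 ± 0.18). The peptide-loading gene Tapbp was at 196 ± 16.9 CPM against 108 ± 9.61 CPM (0.86 ± 0.09). These 2 lay higher in AGES. Of the heavy chains, H2-D1 was at 8.76 ± 4.41 CPM against 33.3 ± 7.57 CPM (-1.93 ± 0.30). H2-K1 was at 33.5 ± 7.57 CPM against 57.7 ± 8.41 CPM (-0.78 ± 0.20). Both were lower, and of 25 genes of this list 15 were lower and 6 higher, with a median of -0.96. Of 44 interferon-stimulated genes, 23 were lower and 12 higher, with a median of -1.18, but of the 23 with 10 counts in each library 10 were lower and 11 higher. Ifitm3, which blocks viral entry, was at 74.5 ± 18.2 CPM against 15.6 ± 2.07 CPM (2.25 ± 0.18). Irf7, which amplifies the response, was at 0.0250 ± 0.0172 CPM against 2.47 ± 0.639 CPM, lower in AGES. Ifit3, at 15.7 ± 2.41 CPM against 1.59 ± 0.269 CPM (3.29 ± 0.59), shares reads with the near-identical Ifit3b, so the split between the pair is uncertain.

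Secreted signals to other cells also parted. Cx3cl1, the ligand of the microglial receptor CX3CR1, was at 586, 620.0, 696 and 575 CPM in AGES and 13.5, 15.5, 12.6 and 12.6 CPM in neoAC direct (log2 fold change 5.51 ± 0.11). Csf1, a growth factor of microglia, was at 476 ± 84.4 CPM against 97.7 ± 5.81 CPM (2.29 ± 0.14). Clcf1, a cytokine of the CNTF family, was at 21.0 ± 10.3 CPM against 0.971 ± 0.194 CPM (4.42 ± 0.37). The chemokine Cxcl14 was at 0.277 ± 0.0908 CPM against 163 ± 30.7 CPM (-9.21 ± 0.23). The chemokine Cxcl12 was at 3.47 ± 2.71 CPM against 34.3 ± 6.69 CPM (-3.29 ± 0.39). The alarmin Il33 was at 2.99 ± 1.11 CPM against 33.5 ± 6.16 CPM (-3.49 ± 0.25). The vascular growth factor Vegfa was at 122 ± 56.9 CPM against 586 ± 59.01 CPM (-2.26 ± 0.39). All 4 were lower in AGES. Over 37 chemokines and cytokines tested, 20 were lower and 9 higher, with a median of -2.11.

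Immediate early genes, which respond within minutes to stimulation and to the handling of tissue, were lower in AGES in 30 of 35 cases, with a median of -3.22, and 4 were higher. Fos, the best known of them, was at 47.8, 45.7, 75.7 and 104 CPM in AGES and 4767, 3837, 4185 and 3428 CPM in neoAC direct (log2 fold change -5.89 ± 0.38). Egr1, a zinc finger factor, was at 25.98, 30.9, 19.5 and 24.8 CPM in AGES and 2543, 2034, 2059.6 and 1875 CPM in neoAC direct (-6.39 ± 0.36). Nr4a1, an orphan nuclear receptor, was at 43.5 ± 10.9 CPM against 1381 ± 303 CPM (-4.99 ± 0.19). The groups were far apart for each of these. Jun, the partner of Fos, was at 180.3 ± 36.8 CPM against 1394 ± 243 CPM (-2.95 ± 0.17). Arc, a gene of active synapses, was at 0.176 ± 0.0680 CPM against 101 ± 20.9 CPM (-9.16 ± 0.37). The mRNA-decay factor Zfp36 was at 5.601 ± 0.677 CPM against 515 ± 86.1 CPM (-6.52 ± 0.19). Gadd45b, a stress gene, was at 135 ± 20.1 CPM against 72.3 ± 14.9 CPM (0.90 ± 0.14). Ier5 was at 93.4 ± 10.8 CPM against 33.9 ± 6.91 CPM (1.46 ± 0.14). AGES had more of both. The neoAC direct cells had been dissociated with enzymes and sorted before lysis, so handling and cell state cannot be told apart here.

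Of 44 genes of the synthesis, uptake and export of cholesterol and of fatty acid synthesis, 31 were lower in AGES and 7 higher, with a median of -1.25. Apoe, the main lipid carrier of astrocytes, was at 1049.8, 1019, 1187 and 837 CPM in AGES and 9654, 12729, 11659 and 7165 CPM in neoAC direct (log2 fold change -3.33 ± 0.21). The cholesterol exporter Abca1 was at 159 ± 28.3 CPM against 725 ± 25.9 CPM (-2.19 ± 0.17). Cyp51, an enzyme of cholesterol synthesis, was at 96.01 ± 7.83 CPM against 419.9 ± 41.3 CPM (-2.13 ± 0.11). Every AGES library lay below every neoAC direct library for these. Hsd17b7, an enzyme of cholesterol synthesis, went the other way, at 145 ± 37.7 CPM against 51.7 ± 8.55 CPM (1.48 ± 0.15). Scd1, a desaturase, was at 2532 ± 393 CPM against 749 ± 98.6 CPM (1.76 ± 0.12). Srebf1, which drives fatty acid synthesis, was at 1358 ± 222 CPM against 502 ± 106 CPM (1.44 ± 0.15). Both were higher. In fatty acid handling, 30 of 39 genes were lower and 6 higher, with a median of -1.20. Fabp5, a fatty acid carrier, was at 115 ± 48.01 CPM against 1014 ± 58.2 CPM (-3.14 ± 0.20). Cpt1a, the gate of mitochondrial oxidation, was at 134 ± 16.5 CPM against 378 ± 10.6 CPM (-1.50 ± 0.10). The droplet protein Plin2 was at 0.415 ± 0.0563 CPM against 34.7 ± 4.17 CPM (-6.36 ± 0.14).

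Glycolysis as a list was balanced, 13 higher and 17 lower of 41 with a median of -0.09, equal to that of all genes, but single steps differed widely. Ldha, the lactate dehydrogenase of lactate formation, was at 1395, 1323, 1888 and 1837 CPM in AGES and 339, 336, 349 and 297 CPM in neoAC direct (log2 fold change 2.29 ± 0.17). Ldhb, its counterpart of lactate use, was at 268, 225, 205 and 185 CPM in AGES and 449, 484, 497 and 368 CPM in neoAC direct (-1.03 ± 0.11). Slc16a1, the lactate transporter MCT1, was at 597 ± 53.5 CPM against 113 ± 29.2 CPM (2.40 ± 0.15). The lactate genes thus went 2 ways, each without overlap. Pdk4, which closes the entry of pyruvate into mitochondria, was at 0.0475 ± 0.0373 CPM against 97.04 ± 6.21 CPM (-10.84 ± 0.20). Pygl, a glycogen phosphorylase, was at 1.002 ± 0.390 CPM against 30.9 ± 1.19 CPM (-4.95 ± 0.21). Aldoc, the aldolase of astrocytes, was at 3309 ± 67.2 CPM against 1977 ± 204 CPM (0.74 ± 0.14). In the serine and one-carbon list, 18 of 30 were lower and 3 higher (6 without neoAC direct replicate 2), with a median of -0.53. Aldh1l1, the folate enzyme used as a marker of all astrocytes, was at 17.3, 11.2, 11.5 and 19.9 CPM in AGES and 1199, 1265, 1434 and 1014 CPM in neoAC direct (-6.36 ± 0.32). Cbs, of transsulfuration, was at 10.1 ± 2.52 CPM against 423 ± 52.6 CPM (-5.39 ± 0.24). Phgdh, the first enzyme of serine synthesis, was at 501 ± 97.1 CPM against 692 ± 149 CPM (-0.46 ± 0.13).

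Nuclear genes of the respiratory chain showed no lean, 27 higher and 21 lower of 76 with a median of 0.07. Of 13 mitochondrial genes 5 were higher and the others were not called, and 11 were higher without neoAC direct replicate 4. Among the 5 was mt-Nd2 at 1764, 1499.8, 1570.1 and 1572 CPM in AGES and 604, 622, 620.5 and 1054 CPM in neoAC direct, where neoAC direct replicate 4 lay nearest to AGES. Cytosolic ribosomal protein genes were higher in 66 of 78 cases, by small amounts (median 0.51), and 7 were lower. Rpl23, for example, was at 549.7 ± 45.05 CPM against 255 ± 19.7 CPM (1.11 ± 0.09). These genes have many processed copies in the genome, so their counts are uncertain.

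Metal and oxidant defence was higher in AGES in 18 of 32 genes against 6 lower, with a median of 0.78. The metallothioneins bind zinc and copper. Mt1 was at 2529, 2139.6, 2552 and 2926 CPM in AGES and 261, 277, 305 and 211 CPM in neoAC direct (log2 fold change 3.27 ± 0.14). Mt2 was at 529 ± 71.1 CPM against 174 ± 12.04 CPM (1.60 ± 0.12). Mt3 was at 2140.3 ± 397 CPM against 567 ± 129.8 CPM (1.92 ± 0.16). Hmox1, heme oxygenase, was at 164 ± 38.8 CPM against 20.8 ± 1.29 CPM (2.98 ± 0.19). Gpx4, which removes lipid peroxides, was at 925 ± 301 CPM against 125 ± 21.8 CPM (2.88 ± 0.18). Gpx3, the secreted peroxidase, was at 0.0562 ± 0.0567 CPM against 26.5 ± 3.78 CPM (-8.75 ± 0.28), lower in AGES. Lysosomal genes were higher in 34 of 52 cases and lower in 17, with a median of 0.60. Ctsb, cathepsin B, was at 2126, 1766, 3966 and 4806 CPM in AGES and 743, 792, 775 and 710.2 CPM in neoAC direct (2.07 ± 0.20). Ctsd, cathepsin D, was at 812 ± 175 CPM against 263 ± 39.1 CPM (1.63 ± 0.12). Both were higher, and AGES replicates 3 and 4 had the most Ctsb. Ctsz, cathepsin Z, was at 0.273, 0.116, 0.224 and 0.230 CPM in AGES and 64.3, 77.8, 70.97 and 52.9 CPM in neoAC direct (-8.31 ± 0.16). Gusb, beta-glucuronidase, was at 0.0390, 0.145, 0.0641 and 0.0329 CPM in AGES and 52.99, 60.3, 55.1 and 59.2 CPM in neoAC direct (-9.52 ± 0.21). Both were near 0 in every AGES library and above 50 CPM in every neoAC direct library.

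Motile cilium genes were lower in AGES in 64 of 68 cases, with a median of -4.29, and 2 were higher. The axonemal dynein Dnah6 was at 0.792 ± 0.319 CPM against 27.4 ± 8.27 CPM (-5.11 ± 0.26). The radial spoke gene Rsph1 was at 1.29 ± 0.168 CPM against 19.2 ± 5.02 CPM (-3.91 ± 0.28). Hydin, of the central pair, was at 0.262 ± 0.0789 CPM against 19.9 ± 5.84 CPM (-6.22 ± 0.32). Ependymal cells carry such cilia, and their markers were also higher in neoAC direct. The regulator Foxj1 was nevertheless read in AGES, at 64.7, 58.1, 52.1 and 76.8 CPM in AGES and 144, 124, 97.6 and 94.2 CPM in neoAC direct (-0.87 ± 0.15). Trp73, another regulator, was at 0.0995 ± 0.0604 CPM against 20.9 ± 3.38 CPM (-7.67 ± 0.23). Deup1, of centriole amplification, was at 0.0634 ± 0.0539 CPM against 15.3 ± 5.79 CPM (-7.78 ± 0.39). Of 19 regulators of multiciliated cells 16 were lower and 1, Rfx2, at 52.98 ± 1.67 CPM against 22.1 ± 3.36 CPM (1.26 ± 0.11), was higher, with a median of -2.55. Genes of the primary cilium, which most cells have, were balanced, with 23 higher and 21 lower of 62 and a median of 0.02.

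Receptors through which astrocytes sense neurons were mostly lower in AGES. Grm3, a metabotropic glutamate receptor, was at 1.68, 1.89, 2.24 and 3.19 CPM in AGES and 521, 499, 517 and 515 CPM in neoAC direct (log2 fold change -7.83 ± 0.18). Grm5, the receptor of young astrocytes, was at 0.0849 ± 0.0714 CPM against 269 ± 14.7 CPM (-11.61 ± 0.44). Ednrb, the endothelin B receptor, was at 91.6, 68.1, 22.6 and 37.2 CPM in AGES and 1375, 1401, 1262 and 1697 CPM in neoAC direct (-4.71 ± 0.32). P2ry1, the ADP receptor, stood the other way, at 114, 151, 99.6 and 75.8 CPM in AGES and 4.23, 4.597, 3.87 and 5.26 CPM in neoAC direct (4.62 ± 0.18). No library overlapped between the groups for these 4 genes, and AGES replicates 1 and 2 had more Ednrb than 3 and 4. Isoforms of the calcium release channel differed in opposite directions. Itpr2, the main form of astrocytes, was at 22.9 ± 2.197 CPM against 153 ± 6.06 CPM (-2.74 ± 0.11). Itpr1 was at 141 ± 20.7 CPM against 25.5 ± 4.46 CPM (2.46 ± 0.11). Of 51 receptors and calcium store genes tested, 31 were lower and 9 higher, with a median of -0.86.

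Synapse-forming and pruning factors were lower in 22 of 31 cases and higher in 6, with a median of -1.17. Mfge8, a bridge to phagocytes, was at 96.01 ± 16.1 CPM against 2496 ± 422 CPM (-4.70 ± 0.14). The phagocytic receptor Megf10 was at 57.2 ± 10.6 CPM against 129 ± 4.17 CPM (-1.17 ± 0.22). The phagocytic receptor Mertk was at 36.1 ± 6.97 CPM against 77.95 ± 2.72 CPM (-1.11 ± 0.11). The neurotrophin receptor Ntrk2 was at 391 ± 173 CPM against 2039 ± 112 CPM (-2.38 ± 0.22). Axon guidance genes were lower in 36 of 56 cases and higher in 13, with a median of -1.77. The repellent Slit1 was at 0.0325 ± 0.0375 CPM against 38.2 ± 6.32 CPM (-10.03 ± 0.31). The repellent Slit2 was at 0.143 ± 0.0585 CPM against 45.8 ± 7.63 CPM (-8.32 ± 0.25). Both were near 0 in AGES, and the netrin receptor Dcc had no read there. The semaphorin Sema3a was at 32.9 ± 5.86 CPM against 3.21 ± 0.786 CPM (3.36 ± 0.20). Sema3f was at 77.99 ± 19.4 CPM against 2.83 ± 0.694 CPM (4.78 ± 0.18). Levels of both were higher in AGES.

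Thyroid hormone reaches neurons through astrocytes, which import T4 and convert it to T3. The importer Slco1c1 was at 0.702, 0.551, 0.513 and 0.823 CPM in AGES and 372, 379, 345 and 460.2 CPM in neoAC direct (log2 fold change -9.23 ± 0.18). The converting deiodinase Dio2 was at 0.936, 0.609, 0.673 and 0.823 CPM in AGES and 399.9, 336, 367 and 476 CPM in neoAC direct (-9.03 ± 0.20). Both were under 1 CPM in every AGES library. The receptor Thrb was at 12.6 ± 3.33 CPM against 12.6 ± 1.45 CPM and was not called. Aldh1a1, which makes retinoic acid, was at 461 ± 28.6 CPM against 17.3 ± 4.09 CPM (4.74 ± 0.23), higher in AGES. In this list 6 of 16 genes were higher and 8 lower, with a median of -0.26, but of the 13 with 10 counts in each library 6 were higher and 5 lower.

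The substrains of the groups differed too. C57BL/6J mice carry a deletion within Nnt, the mitochondrial transhydrogenase gene, that C57BL/6N mice lack. Nnt was at 104, 97.3, 102 and 91.3 CPM in AGES and 38.2, 39.6, 38.8 and 43.3 CPM in neoAC direct (log2 fold change 1.30 ± 0.07), with no overlap.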

How the data were processed

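RNA was isolated from AGES cultures and from frozen neoAC direct pellets. Poly(A) libraries were made with a stranded TruSeq kit from RNA of RIN 7 or more. Per the submitters' processing notes, the authors demultiplexed with bcl2fastq 2.20, aligned to GRCm38 with STAR 2.7.3a and counted reads with featureCounts. The deposited values are raw counts per Ensembl gene, not normalized. Reads without molecular identifiers may repeat a molecule, so intervals and the limit of 3 counts cover counting error only. Total counts were 28114306 to 37997368 in the 8 libraries.

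Gene symbols and positions came from Gencode vM21 (99.5% of identifiers matched). Counts of all 24 libraries of the 6 groups were fitted with edgeR 4.0.16 (R 4.3.3, limma 3.58.1): filterByExpr, TMM, robust quasi-likelihood fit, two-sided F test of AGES minus neoAC direct, Benjamini-Hochberg adjustment over 19691 genes. Genes on X, Y and unplaced sequence were left out afterwards. DESeq2 1.42.0 was an alternative. Tested on simulated counts (19691 genes, 200 changed, evenly up and down), the fit recovered 173 with 10 false calls. In the real comparison 73.9% of genes were called, with more large differences on the low side. The simulation did not test the fit under that condition.

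Members and gene lists were chosen with earlier results of these data known. Genes were named by rule: key genes of the lists, the 12 largest differences each way among protein-coding genes at 10 CPM or more without overlap, the 5 most abundant genes per group, and up to 3 called members of each list each way. Map2, Mapt, Rnf5, Cdkn2c and Cdkn2d were named after their values were seen. Some genes are not reported here. Replicates of a group differed by more than sampling noise. Alternatives were other size factors, filters, a fold threshold, a fit of the 8 libraries, the replicate number as a term and leaving out each library.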

Additional observations from a re-analysis of the deposited data

Results flagged for a closer look

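In 34 of 593 groups of 4 libraries, 1 library lay far from the other 3 by Dixon's test, where chance gives about 1 in 20, or 30. Many of the 34 were genes or sums already described. In neoAC direct, replicate 2 had the most microglial C1qa (10.52 CPM, others 2.21 to 2.828), C1qc (14.48 CPM, others 2.275 to 3.193) and Csf1r (29.88 CPM, others 5.266 to 9.015). It also had the highest complement sum (2335.0 CPM, others 1875.0 to 1925.3), the most Pax7 (0.9969 CPM, others 0.13 to 0.2718) and Cdkn2a (0.3877 CPM, others 0.1625 to 0.1996), and the least Cdc6 (4.541 CPM, others 5.688 to 5.884). The endothelial, mural and erythroid sums were highest in this library too, and their part in these values was not tested.

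Replicate 4 of neoAC direct stood highest for the summed mitochondrial transcripts (19366.2 CPM, others 10294.9 to 10711.9), with mt-Nd2 at 1054.2 CPM (others 603.8 to 622.1). It was also highest for Slc7a11 (408.9 CPM, others 271.3 to 279.8), Ogn (11.04 CPM, others 3.533 to 4.356), Mertk (82.0 CPM, others 76.14 to 77.01) and the class I presentation sum (2649.1 CPM, others 2381.6 to 2417.3), and lowest for the glial factors Sox9 (427.8 CPM, others 590.7 to 615.2) and Nfix (404.0 CPM, others 533.2 to 553.8). Replicate 3 was lowest for Igf2 (171.4 CPM, others 265.2 to 279.3). Replicate 1 was highest in the sums of intermediate filaments (2964.7 CPM, others 2677.0 to 2704.4), of kinase inhibitors and growth arrest genes (2305.4 CPM, others 2078.0 to 2113.5) and of regulators of multiciliated cells (555.8 CPM, others 476.1 to 480.7).

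In AGES, replicate 3 was highest for the matrix genes Col5a1 (374.5 CPM, others 164.8 to 176.4) and Col6a1 (198.3 CPM, others 63.52 to 82.98), and for the sum of brain matrix genes (33104.6 CPM, others 24794.1 to 25693.2). It was highest as well for Tpm1 (237.3 CPM, others 169.3 to 174.9), Bambi (39.73 CPM, others 30.48 to 31.76) and the thyroid hormone sum (3083.7 CPM, others 2814.9 to 2825.6), and lowest for Etv4 (1.41 CPM, others 4.41 to 4.994) and Hoxa10 (6.088 CPM, others 6.584 to 6.681). Replicate 4 was highest for Vcan (44.5 CPM, others 15.29 to 19.03) and Pole2 (10.96 CPM, others 10.61 to 10.62) and lowest for Ttr (0.757 CPM, others 1.014 to 1.044). Replicate 2 was lowest for Cpe (420.6 CPM, others 688.8 to 740.5). Replicate 1 was highest for Cdk1 (8.154 CPM, others 6.12 to 6.294), Meg3 (0.3901 CPM, others 0.1923 to 0.203) and the mitochondrial sum (22213.0 CPM, others 18318.4 to 18625.0). None of these libraries crossed to the range of the other group for a called gene among those named in this paragraph.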

How the results depend on the processing

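Of 18935 genes, 13968 were called with DESeq2's size factors, 13950 with library sizes alone, 12145 of 16260 in a fit of the 8 libraries, 9351 of 12526 with 10 counts in each compared library, 14812 of 31964 without a filter and 14824 by DESeq2's Wald test. A fold threshold of 1 on the log2 scale left 8492, of which 2994 were higher, and the filter of 10 counts left 4694 lower genes, since fewer genes pass either. Leaving out each library in turn gave 13673 to 14135. Same-numbered libraries of the 2 groups did not deviate together (r from -0.09 to 0.03), so the numbers only name libraries, and with the replicate number as a block 13969 were called. Genes higher in AGES made up 44.4% of calls and from 35.3% (fold threshold) to 49.8% (10 counts) otherwise. The 10-count filter removes genes near 0 in AGES. Under it the complement, interferon, A1, thyroid and neuronal lists turned from more members lower to more members higher. For the interferon, thyroid and neuronal lists the counts were then nearly even. The near-even primary cilium and nuclear respiratory chain lists turned under several settings.

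Among 275 named genes tested, 2 lost their call under some alternative (Notch1 and Smc4) and 7 gained one: Cdkn1a without AGES replicate 1, Nfia, Nfix, Nog, Pax6 without AGES replicate 1, Pdgfra without neoAC direct replicate 3, and Scd2. Reversals of sign, none called, concerned 6 genes, and their cause was not tested. Thrb (0.0013 on the log2 scale) was at -0.0529 with DESeq2's size factors, -0.0714 with library sizes alone, -0.0194 without a filter, -0.0718 with 10 counts, -0.0122 in the 8 libraries, -0.0032 with the block, -0.0541 by DESeq2 and from -0.1329 to 0.1679 when libraries were left out. Rnf5 (0.062) was at -0.0084 with library sizes alone, -0.0073 with 10 counts and from -0.0544 (without neoAC direct replicate 4) to 0.1614 when libraries were left out. Over single libraries left out, Acta2 (-0.177) ran from -0.3882 to 0.016 and Col4a1 (-0.2077) from -0.3276 to 0.0874, both turning without neoAC direct replicate 2, and Nog (0.308) ran from -0.1088, without AGES replicate 3, to 0.4698. Cdkn2c (0.0932) ran from -0.0349, without neoAC direct replicate 4, to 0.2557. Depth limits what a count of 0 excludes to about 0.1 CPM a library.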

Other observations

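The other groups of the series show where some of the widest differences lay along the way from NSC to AGES. Of the 602 genes with a mean under 1 CPM in AGES and of 10 CPM or more in neoAC direct, 484 were under 1 CPM in the NSCs as well. Of these, 283 were at 10 CPM or more in cultured neonatal astrocytes (neoAC CellC) and in astrocytes taken from adult brain (AdAC direct). AGES were made from NSCs, and how often genes under 1 CPM in AGES were so in the NSCs was not counted over all genes. The genes named in this paragraph were picked after their values were seen. Luzp2, a leucine zipper protein, was at 0.659 ± 0.254 CPM in AGES and 0.625 ± 0.172 CPM in NSC. It was at 921 ± 123 CPM in neoAC direct, 474 ± 33.97 CPM in AdAC direct and 105 ± 7.101 CPM in neoAC CellC. Emp2, a tetraspan membrane protein, was at 0.482 ± 0.0849 CPM in AGES and 0.673 ± 0.236 CPM in NSC, against 508 ± 22.1 CPM in neoAC direct, 72.9 ± 1.75 CPM in AdAC direct and 75.8 ± 2.15 CPM in neoAC CellC. Nid1, a basement membrane protein, was at 0.661 ± 0.0934 CPM in AGES and 0.599 ± 0.211 CPM in NSC, against 302 ± 27.6 CPM in neoAC direct, 23.3 ± 2.996 CPM in AdAC direct and 66.6 ± 11.01 CPM in neoAC CellC. In cultured adult astrocytes (AdAC CellC), which did not enter these counts, Luzp2 was at 26.4 ± 3.98 CPM, Emp2 at 113 ± 9.15 CPM and Nid1 at 181 ± 24.7 CPM.

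In the other direction, 104 genes had a mean of 10 CPM or more in AGES and under 1 CPM in neoAC direct. Of these, 46 were at 10 CPM or more in the NSCs, and 33 of the 46 were under 1 CPM in neoAC CellC and AdAC direct too. Here as well, the share over all genes at 10 CPM or more in AGES was not counted. Of the 33, 11 are annotated as processed pseudogenes, whose reads cannot be told from those of their parent genes with certainty, and 7 are Hox genes. Hotairm1, a non-coding RNA of the Hoxa cluster, was at 53.8 ± 4.08 CPM in AGES and 43.2 ± 13.5 CPM in NSC, against 0.479 ± 0.115 CPM in neoAC direct. Tbx15, a T-box factor of the trunk mesoderm and skeleton, was at 46.2 ± 3.65 CPM in AGES and 37.8 ± 2.84 CPM in NSC, against 0.951 ± 0.304 CPM in neoAC direct. By contrast, C3 was at 2.08 ± 1.08 CPM in NSC and 1622 ± 795 CPM in AGES, and Gfap at 32.9 ± 2.89 CPM in NSC and 50503 ± 1883 CPM in AGES. All of these values are means over 4 libraries of 1 cell line or of pooled mice, and no test was made between the groups that this paragraph adds.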
